A study of Vitis vinifera with 8 samples.

Results

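CBL01, a calcium sensor gene, and 6 genes of CBL-interacting protein kinases (CIPK01, CIPK02, CIPK14, CIPK15, CIPK19 and CIPK20) were followed in grape berries before and after the onset of ripening, without heat and after 1 hour of heat. They are 7 of the 26 genes named as CBL or CIPK (8 CBL and 18 CIPK) among the 25771 gene IDs of the deposited files. These 26 are called the family here, and CBL or CIPK genes without such a name would be missed. Numeric gene IDs were matched to Vitis vinifera gene names. CIPK15 was found as the synonym of a gene with a placeholder symbol, and the other members by their symbol. The 7 were chosen from the family with their values in all 4 groups of berries already known, and in particular all 7 lie past the test threshold in the heat comparison before véraison. Their levels and differences are therefore given as a description, and no member is given a p-value of its own. Where members are counted as past the threshold of a fit over all genes, the count also only describes them, since it is not independent of how they were chosen.

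The berries came from L1 microvines, a dwarf grapevine derived from Pinot Meunier, and their seeds were removed before RNA extraction. Plants stood in a growth room at 16 °C. Green pre-véraison berries, 5 to 6 weeks post-anthesis, and ripening post-véraison berries, 12 to 14 weeks post-anthesis, were each collected at 9 AM before heating and at 10 AM after 1 hour at 38 °C (4 groups, 2 biological replicates each, 8 libraries). Heating and the hour between collections cannot be told apart in this design. In bulk berry tissue, fewer cells that express a gene and less of its RNA per cell cannot be told apart either.

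Plant cells answer many stresses with brief rises of calcium in the cytosol. Calcineurin B-like proteins (CBL) bind this calcium through EF hands and, once loaded, dock onto a conserved motif in the regulatory region of a CIPK, which frees the kinase from its own inhibition. The pair then phosphorylates its targets at the membrane where the CBL is anchored. In Arabidopsis such pairs control potassium channels, nitrate and sodium transport and the response to abscisic acid, and CBL1 sits at the plasma membrane by a lipid anchor. In grape, CBL and CIPK proteins activate K1.2, an inward potassium channel of the berry flesh, when produced together in frog oocytes. Numbers of grape and Arabidopsis kinases need not mark orthologues, so no role is carried over to the 6 kinases by number.

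Values are RPKM as deposited (reads scaled to the length of the gene and to the reads of the library), so levels of different genes are set side by side per length. The lengths that the authors used, as worked out from the values, ran from 978 to 3366 bp for the 7 genes. They were not checked against the gene models of the authors. For CIPK02, CIPK15 and CIPK20 they exceeded the gene spans in the RefSeq gene table, whose assembly may differ from the one the authors used. A length that is off would shift a gene by the same factor in all 8 libraries, which bears on ranks, ratios and shares between genes but not on a gene's own differences between groups. The read totals of the libraries, worked out from the spacing of low RPKM values, ran from 6047199 to 11243341 reads. The heating reached the berries of both stages: HSP101, a chaperone gene, was at 7.12 and 6.34 RPKM without heat and at 944.4 and 1074.8 RPKM with it before véraison, and at 4.74 and 6.45 against 65.2 and 45.7 RPKM after véraison. The stage labels were matched by the ripening gene GRIP22, at most 0.672 RPKM in the 4 pre-véraison libraries and at least 370.9 RPKM in the 4 post-véraison ones. Differences below are in log2(RPKM + 1) with the moderated standard error (SE) of a limma fit over 16777 genes that passed a filter on low values, all 7 members among them, and a gene counts as called at an adjusted p under 0.05.

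The sensor gene CBL01 was mainly a transcript of green berries. It stood at 59.0 and 63.1 RPKM in unheated and at 45.8 and 36.5 RPKM in heated pre-véraison berries (349 to 435 and 315 to 350 reads). After véraison it was at 14.8 and 13.8 RPKM without heat and at 17.4 and 18.9 RPKM with it. No 2 of the 4 groups overlapped, and the order from high to low was unheated green, heated green, heated ripening and unheated ripening berries. Heat thus went with a lower level in green berries, by -0.57 ± 0.12 (SE) log2 units, and with a higher one in ripening berries, by 0.32 ± 0.12. The means were 61.1 ± 2.91 and 41.2 ± 6.58 RPKM before véraison, and 14.3 ± 0.67 and 18.1 ± 1.05 RPKM after it (SD, n = 2). The stage difference exceeded both heat differences: unheated green berries held 4.27 times the level of unheated ripening ones.

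Among the 6 member kinases, CIPK02 differed most with heat. It was at 5.52 and 3.84 RPKM in unheated and at 20.4 and 20.5 RPKM in heated green berries, a ratio of means of 4.37. In ripening berries it was at 14.4 and 9.00 RPKM without heat and at 20.0 and 23.8 RPKM with it, a ratio of 1.87. Heated libraries of each stage were all above the unheated ones of that stage, and the heated libraries of both stages overlapped. The difference was 1.93 ± 0.21 (SE) log2 units before and 0.88 ± 0.21 after véraison. Without heat, CIPK02 was the lowest of the 7 genes in both green libraries, and in those the counting error was 10.3% and 11.4% (95 and 77 reads) beside an SD of 25.4% of the mean. Its unheated ripening libraries also lay far apart, with an SD of 32.9% of the mean. Without replicate 1 of those, the heat difference after véraison was 1.19, and without replicate 2 it was 0.56.

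CIPK01 was higher with heat in green berries and about level in ripening ones. Its 2 unheated green libraries held 15.4 and 13.8 RPKM and its heated ones 27.3 and 29.9 RPKM, a difference of 0.93 ± 0.12 (SE) log2 units. After véraison the values were 26.3 and 23.4 RPKM without heat and 25.2 and 23.0 RPKM with it, a difference of -0.04 ± 0.12. The unheated green berries stood alone at the low end, and the ripening groups overlapped each other just below the heated green berries.

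CIPK20 was the most abundant of the 7 genes after véraison. It went from 43.4 and 46.4 RPKM in unheated to 64.0 and 63.8 RPKM in heated green berries, 1.42 times as much and 0.50 ± 0.11 (SE) log2 units. Ripening berries held 629.2 and 622.3 RPKM without heat and 506.9 and 629.9 RPKM with it (8521 to 12434 reads). The ripening groups overlapped, and heated replicate 1 alone lay lower. At 16 °C the mean after véraison was 13.9 times that before it, and 99.4% of the tested genes had a lower level in ripening berries at either temperature, against 83.6% in unheated green berries.

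CIPK14 and CIPK19 were both lower in heated green berries and lower again, or level, in ripening ones. CIPK14 was at 98.2 and 87.5 RPKM in unheated and at 54.8 and 47.8 RPKM in heated green berries, -0.84 ± 0.11 (SE) log2 units. It was at 35.6 and 34.8 RPKM without heat and at 31.2 and 35.0 RPKM with heat in ripening berries, -0.09 ± 0.11. In unheated green berries it was the most abundant of the 7. CIPK19 was at 12.0 and 12.6 RPKM in unheated and at 5.83 and 4.40 RPKM in heated green berries, -1.13 ± 0.16 log2 units, and at 4.57 and 4.32 against 4.18 and 4.94 RPKM in ripening berries, 0.03 ± 0.16. For CIPK19 the heated green libraries overlapped the heated ripening ones, so that 3 of the 4 groups were close together and only the unheated green berries stood above. CIPK19 rested on 50 to 119 reads a library, with a counting error of up to 14.1%.

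CIPK15 was lower in heated green berries yet far higher in ripening ones. It was at 33.9 and 32.4 RPKM in unheated and at 17.0 and 18.0 RPKM in heated green berries, -0.88 ± 0.09 (SE) log2 units. Ripening berries held 143.1 and 146.3 RPKM without heat and 150.1 and 141.5 RPKM with it, 0.01 ± 0.09. The ripening groups overlapped, and all 4 of their libraries lay more than 100 RPKM above every green one. The mean after véraison was 4.37 times that before it at 16 °C and 8.33 times at 38 °C.

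**Figure D1:**
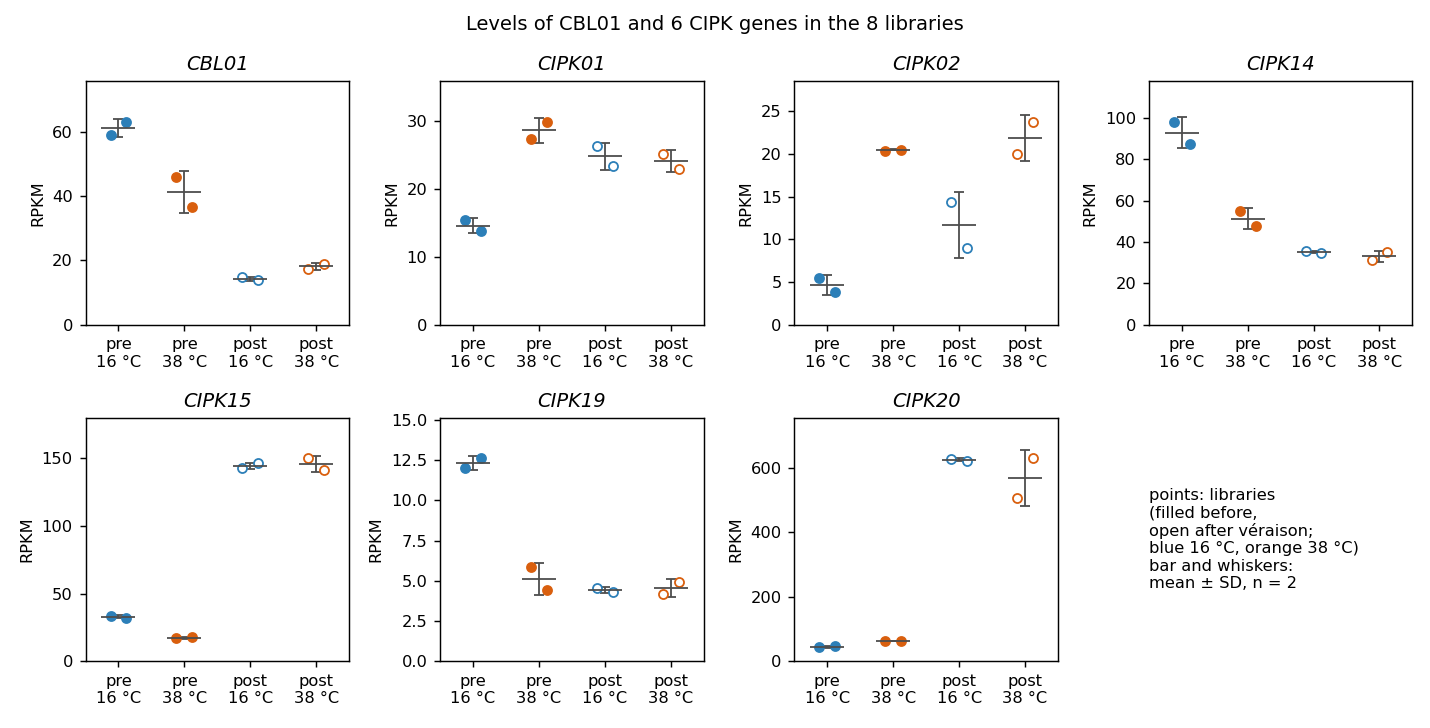
RPKM of CBL01 and the 6 CIPK genes in each library (points) by stage and temperature, with the mean and SD of the 2 libraries of a group; every axis starts at 0. CBL01 and CIPK14 are highest in unheated green berries (61.1 and 92.9 RPKM on average), CIPK15 and CIPK20 in ripening berries (145 and 626 RPKM at 16 °C), and CIPK01 and CIPK02 are lowest in unheated green berries (14.6 and 4.68 RPKM).

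In green berries 3 of the 7 genes were called higher with heat (CIPK01, CIPK02, CIPK20) and 4 lower (CBL01, CIPK14, CIPK15, CIPK19), where 7.96% of all tested genes were called higher and 12.4% lower; with median-ratio scaling of the libraries the calls over all genes were 1502 higher and 1488 lower in place of 1335 and 2082. Since the members were picked with this comparison known, nothing is read from that count. Their differences spanned 0.50 to 1.93 log2 units upwards and -0.57 to -1.13 downwards, and the median over all tested genes was -0.09. Without replicate 2 of the heated green berries, 2 of the members were called higher and 3 lower.

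After véraison 0 of the 7 genes were called in either direction by limma, where 1.09% of all tested genes were called higher and 0.161% lower. Before adjustment, limma p was under 0.05 for 2 members, both higher. Over all 16777 tested genes it was under 0.05 for 1040 higher and 584 lower ones. CIPK02 was the 1 member called by limma voom on recovered reads, and also the 1 called in the fit without replicate 1 of the unheated ripening berries. The members' median difference was 0.01 log2 units and that of all tested genes 0.02.

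The difference between the heat responses, after minus before véraison, was 0.89 ± 0.18 (SE) log2 units for CBL01, 0.76 ± 0.16 for CIPK14, 0.90 ± 0.13 for CIPK15 and 1.16 ± 0.23 for CIPK19. It was -0.97 ± 0.16 for CIPK01, -1.06 ± 0.30 for CIPK02 and -0.65 ± 0.16 for CIPK20. Hence 4 members were called with a positive and 2 with a negative interaction, against 3.95% and 3.53% of all tested genes (662 and 592 genes, and 412 and 624 with median-ratio scaling). In the limma fit over the 16777 genes with 4 group means, CIPK02 was the 1 member not called. It was called by limma voom, and in limma without replicate 1 of the unheated green berries or replicate 2 of the unheated ripening berries. CIPK20 lost its call with all genes unfiltered and with the replicate block. With 1 library left out, its difference ran from -0.80 to -0.49. The interaction uses the same green libraries as the heat comparison before véraison, so the counts of called members add no separate evidence. Without replicate 2 of the heated green berries or replicate 2 of the heated ripening berries, 3 members were called.

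**Figure D2:**
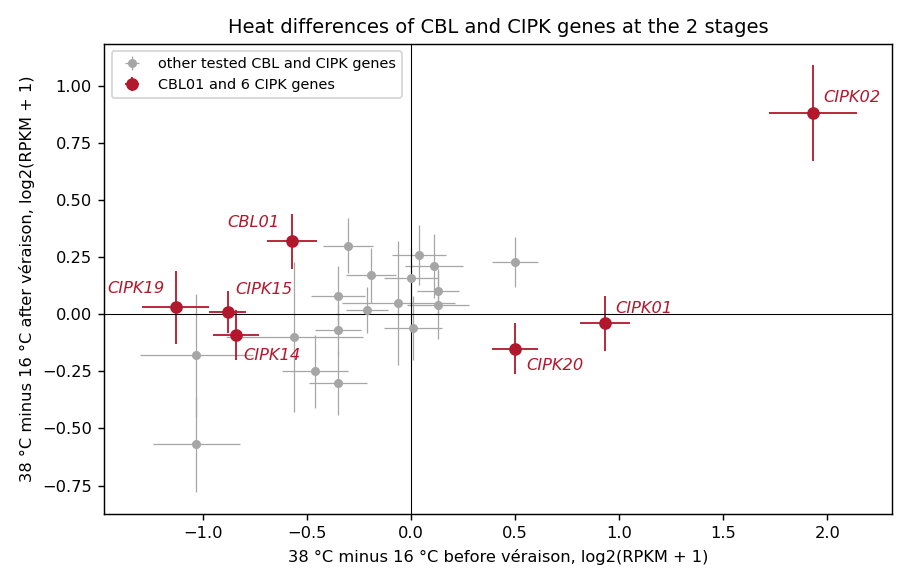
Heat difference in log2(RPKM + 1) before véraison (horizontal) against after véraison (vertical), with SE bars, for CBL01 and the 6 CIPK genes (red) and the 18 other tested CBL and CIPK genes (grey). CIPK02 lies furthest to the upper right (1.93 and 0.88), CBL07 is the lowest point (-1.03 and -0.57), and CBL01 lies below 0 before (-0.57) and above 0 after véraison (0.32).

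The 7 genes parted in 2 directions with ripening. At 16 °C the difference of ripening minus green berries was 3.77 ± 0.11 (SE) log2 units for CIPK20, 2.09 ± 0.09 for CIPK15, 1.15 ± 0.21 for CIPK02 and 0.73 ± 0.12 for CIPK01. It was -2.02 ± 0.12 for CBL01, -1.37 ± 0.11 for CIPK14 and -1.29 ± 0.16 for CIPK19. All 7 were called, 4 higher and 3 lower, where 14.9% of all tested genes were called higher and 57.0% lower. The members were chosen with these levels known, and nothing is read from that count or from the one at 38 °C. The median over all tested genes was itself -0.52 log2 units, and median-ratio scaling moved it to -0.02, with 5293 genes called higher and 5674 lower. Under that scaling the members kept their directions, with 4.37 for CIPK20, 2.69 for CIPK15, 1.67 for CIPK02 and 1.30 for CIPK01, and with -1.44 for CBL01, -0.78 for CIPK14 and -0.76 for CIPK19.

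At 38 °C the stage difference was 3.12 ± 0.11 (SE) log2 units for CIPK20 and 2.99 ± 0.09 for CIPK15. It was -1.13 ± 0.12 for CBL01 and -0.62 ± 0.11 for CIPK14, and with median-ratio scaling -0.65 and -0.13. For the other 3 kinases the stages were near each other among heated berries: CIPK02 differed by 0.09 ± 0.21 and 0.56 with that scaling, CIPK01 by -0.24 ± 0.12 and CIPK19 by -0.13 ± 0.16, and the last 2 turned to 0.24 and 0.28 with it. In all, 2 members were called higher and 2 lower (3 and 1 with median-ratio scaling, with CIPK02 added and CIPK14 lost), against 17.2% and 53.0% of all tested genes (5331 higher and 5849 lower with median-ratio scaling, in place of 2889 and 8900). The 2 stage comparisons share their libraries with the 2 heat comparisons.

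**Figure D3:**
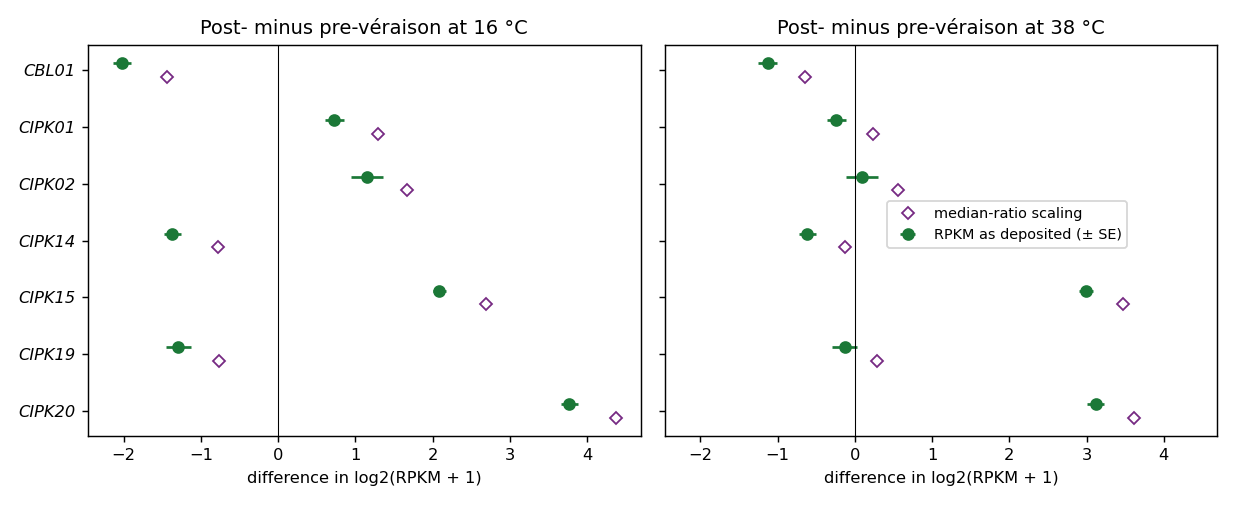
Post- minus pre-véraison difference in log2(RPKM + 1) of CBL01 and the 6 CIPK genes at 16 °C (left) and 38 °C (right), from RPKM as deposited (circles, with SE) and after median-ratio scaling (diamonds). CIPK20 and CIPK15 lie furthest to the right in both panels (3.77 and 2.09 at 16 °C as deposited), and CIPK01 and CIPK19 change sides of 0 with the scaling at 38 °C.

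The order of the members changed with stage and heat. Both unheated green libraries ran from CIPK14 through CBL01, CIPK20, CIPK15, CIPK01 and CIPK19 to CIPK02. Both heated green libraries ran from CIPK20 through CIPK14, CBL01, CIPK01, CIPK02 and CIPK15 to CIPK19. All 4 ripening libraries began with CIPK20, CIPK15 and CIPK14 and ended with CIPK19. The ratio of CIPK15 to CIPK14 was 0.345 and 0.37 in unheated and 0.311 and 0.376 in heated green berries, and it was 4.02 to 4.82 in the ripening libraries. The ratio of CIPK02 to CIPK19 was 0.461 and 0.304 in unheated and 3.50 and 4.66 in heated green berries, and 2.08 to 4.81 in ripening berries.

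Within the family, the 18 named CIPK genes summed to 2349.8 to 2521.9 RPKM in unheated green and to 1632.7 to 1670.5 RPKM in unheated ripening berries. With median-ratio scaling, an alternative chosen after seeing the data, the sums were 1823.0 and 2065.4 against 2047.7 and 1964.6, so the stages overlapped and the lower sum of ripening berries holds on the deposited scale alone. Shares within a library do not depend on this scaling. The 6 members made up 7.79 to 8.86% of that sum in unheated green, 8.90 to 9.90% in heated green, 51.1 to 51.5% in unheated ripening and 51.7 to 53.1% in heated ripening berries. CIPK20 by itself made up 1.84 to 1.85% in unheated green and 37.7 to 38.1% in unheated ripening berries. CIPK03, a kinase gene outside the 7 that was singled out after its values were seen, made up 69.1 to 71.2% of the CIPK sum in unheated green and 27.2 to 27.3% in unheated ripening berries, at 1622.6 and 1794.3 against 455.5 and 443.6 RPKM. CBL01 held 25.2 to 26.7% of the sum of the 8 CBL genes in unheated green berries, 17.9 to 18.3% in heated green berries and 17.8 to 20.7% in the ripening libraries.

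**Figure D4:**
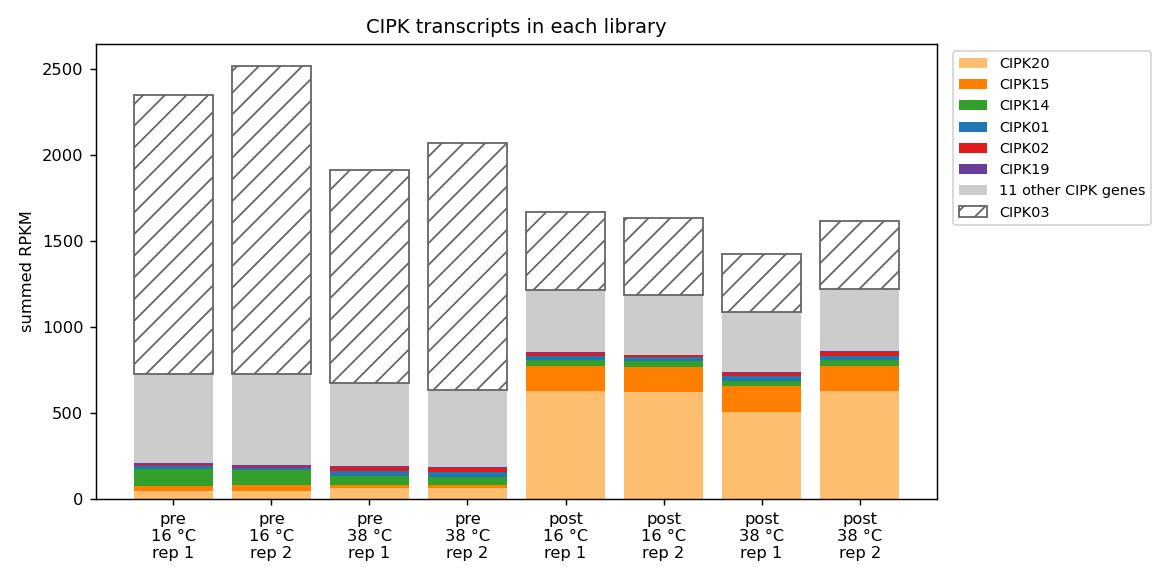
Summed RPKM, as deposited, of the 18 named CIPK genes in each library, stacked by gene. The 6 members are in colour, 11 other genes in grey and CIPK03 is hatched. CIPK03 fills most of the green bars (69.1 to 71.2% without heat), and CIPK20 is the largest member block of the ripening bars (37.7 to 38.1% without heat).

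Of the 19 other CBL and CIPK genes, 18 could be tested, since CBL05 reached at most 0.785 RPKM. These are the genes left after the members were taken out with the results known. With heat before véraison, limma called 1 higher and 3 lower, or 22.2% of them, near the 20.4% of all tested genes called in either direction. With median-ratio scaling the counts were 1 and 1. CBL06 rose from 33.1 and 32.3 to 45.9 and 47.3 RPKM, a difference of 0.50 ± 0.11 (SE) log2 units (limma adjusted p = 0.0095). CBL07, its direct neighbour in the order of the RefSeq gene table, fell from 16.0 and 12.6 to 7.99 and 5.18 RPKM, a difference of -1.03 ± 0.21 (limma adjusted p = 0.0058). The libraries of the 2 temperatures did not overlap for either gene.

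CIPK16, the direct neighbour of CIPK01 in the same table, fell, with a difference of -1.03 ± 0.27 (SE) log2 units (limma adjusted p = 0.021), from 1.81 and 1.13 to 0.265 and 0.134 RPKM, on 37 and 27 against 7 and 4 reads. At such low levels the size of the difference depends on the pseudocount, and it ran from -2.81 with limma voom to -0.31 with a pseudocount of 5. The call was lost in 6 of 15 alternative fits, with adjusted p from 0.0032 to 0.18. CIPK13 fell, from 153.5 and 160.4 to 134.8 and 111.3 RPKM, a difference of -0.35 ± 0.11 (limma adjusted p = 0.040), a call lost in 11 of 15 alternatives (0.014 to 0.23). That of CBL07 was lost in 2 (0.0011 to 0.056) and that of CBL06 in 1 (0.0039 to 0.063). By limma voom the whole family of 25 tested genes had 4 higher and 11 lower, against 4 and 7 in limma.

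After véraison limma called 0 of these 18 genes with heat, where 1.25% of all tested genes were called in either direction. Before adjustment, p was under 0.05 for CIPK07, which was higher, and for CBL07, which was lower, and limma voom called 0. Of all 16777 tested genes, 1040 higher and 584 lower ones had such a p. None of the 18 had a called interaction in limma, against 7.47% of all tested genes. There p before adjustment was under 0.05 for CIPK07, CIPK09 and CIPK16, all positive, and limma voom called 1, CIPK07. Over all tested genes, 2338 positive and 1241 negative interactions had such a p. The median heat difference of the 18 was -0.20 log2 units before and 0.05 after véraison.

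Between stages at 16 °C, 2 of the 18 were higher and 14 lower in ripening berries, where 14.9% of all tested genes were called higher and 57.0% lower. With median-ratio scaling the counts were 2 and 11, with CBL03, CIPK11 and CIPK12 no longer called. The 2 were CIPK16, at 9.70 and 4.97 RPKM after véraison (1.71 ± 0.27 log2 units, limma adjusted p = 2.1e-04), and CIPK10, at 65.9 and 91.4 before against 150.5 and 133.8 RPKM after it (0.86 ± 0.14, limma adjusted p = 3.0e-04). Falls of CBL04 (-2.70 ± 0.33, limma adjusted p = 3.5e-05), CBL07 (-2.29 ± 0.21, 3.8e-06) and CBL06 (-1.94 ± 0.11, 1.4e-07) were the largest at a pseudocount of 1. Their order depends on it: with a pseudocount of 5 the differences were -1.28, -1.44 and -1.56. That of CBL04, on 9 and 2 reads in unheated ripening berries, ran from -4.61 to -1.28 over the alternatives, and that of CIPK16 from 0.91 to 2.24. At 38 °C the counts were again 2 higher and 14 lower, and 3 and 9 with median-ratio scaling, with CIPK16 at 2.56 ± 0.27, CIPK10 at 0.79 ± 0.14, CBL04 at -2.24 ± 0.33, CBL06 at -2.21 ± 0.11 and CIPK03 at -1.86 ± 0.14 (limma adjusted p at most 5.7e-04). Over the alternatives CIPK16 ran from 1.09 to 4.89 and CBL04 from -3.87 to -0.97. Over the whole family the calls at 38 °C were 4 higher and 16 lower, and 6 and 10 with median-ratio scaling. Of the 8 CBL genes, CBL08 was the 1 tested gene not called at 16 °C. It lay near the floor, at 0.116 to 1.13 RPKM on 1 to 10 reads a library.

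Only the 309 gene IDs with a descriptive name could be matched to lists of names. A list of names of cation, nitrate and proton transport genes, drawn up around known targets of such pairs in Arabidopsis, matched 3 genes, all tested. They were SOS1, a sodium-proton exchanger gene and such a target in Arabidopsis, K1.2, the grape channel described above, and TPC1, a vacuolar cation channel gene that is not an established target. With heat before véraison 0 rose and 1 fell, K1.2, from 3.85 and 3.98 to 2.13 and 2.18 RPKM (-0.64 ± 0.13 log2 units, limma adjusted p = 0.0052). After véraison 0 were called, and the count was also 0 before adjustment and with limma voom. At 16 °C K1.2 was higher in ripening berries, at 27.7 and 29.3 RPKM (2.59 ± 0.13, limma adjusted p = 5.0e-08). SOS1 was lower, at 16.2 and 15.9 against 6.01 and 7.39 RPKM (-1.15 ± 0.14, limma adjusted p = 4.0e-05), as was TPC1 (-0.51 ± 0.14, limma adjusted p = 0.0086). The call of TPC1 was lost with median-ratio scaling, where the difference was 0.08 (adjusted p = 0.63, and 0.0027 to 0.63 over all alternatives), and without replicate 2 of the unheated ripening berries.

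Genes with the most similar course over the 8 libraries were sought among those with a name and a mean log2 level of at least 1, by the root mean square difference of centred log2(RPKM + 1) values. Within the family, the gene nearest to CIPK19 was CIPK14 (0.19 log2 units), the nearest to CIPK14 was CIPK13 (0.19), and the nearest to CBL01 was CIPK08 (0.23). CIPK15 was nearest to CIPK16 (0.34), CIPK01 to CIPK17 (0.42), CIPK02 to CIPK01 (0.54) and CIPK20 to CIPK15 (0.68). Many genes outside the family ran closer than these matches. Of 15440 genes compared, 47 were nearer to CIPK19 than its match, 188 to CIPK14 and 318 to CBL01. For CIPK15 there were 98, for CIPK01 2360, for CIPK02 173 and for CIPK20 258. The members themselves were up to 2.55 apart, for CBL01 and CIPK20. The distance of CIPK01 to CIPK17 exceeds the spread of CIPK01 about its own mean (0.36), so within the family no named gene ran close to it.

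Among 217 named genes outside the family, the nearest were EF-4 for CBL01 (0.19), the serine acetyltransferase gene SERAT for CIPK01 (0.19) and MLO3, of the MLO membrane protein family, for CIPK02 (0.43). They were the DELLA repressor gene VVGAI1 for CIPK14 (0.17), K1.2 for CIPK15 (0.19), VVGT6 for CIPK19 (0.27) and the ripening-induced gene GRIP31 for CIPK20 (0.31). Group means of VVGT6 were at most 2.46 RPKM, those of VVGAI1 5.36 and those of CIPK16, matched to CIPK15 above, 7.34. At such low levels the pseudocount shrinks differences, and no other pseudocount was tried for these matches. Of 15440 genes compared, 12 were nearer to CIPK15 than K1.2 and 282 nearer to CIPK19 than VVGT6. For CBL01 there were 84 nearer than EF-4, for CIPK01 45 nearer than SERAT and for CIPK02 59 nearer than MLO3. For CIPK14 there were 104 nearer than VVGAI1, and for CIPK20 17 nearer than GRIP31.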

How the data were processed

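Messenger RNA of 8 single-end Illumina libraries was measured. Values are RPKM per gene as deposited by the authors, 1 file per library. Per the submitters' processing notes, Bowtie 0.12.7 and TopHat 1.2.0 were used; not given in the sources used here are how reads were counted per gene, on which build and gene models, with or without strand, and how multiply matching reads were treated, so reads shared between related kinases could be split in an unknown way. Of 25771 IDs 18647 matched the RefSeq gene table (assembly ASM3070453v1), which served for names, neighbours and a comparison of gene spans only.

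Members and gene lists were chosen with earlier results of these data known. Log2(RPKM + 1) was taken for the 16777 genes that reached 1 RPKM in 2 or more libraries and entered a linear model (limma 3.58.1, R 4.3.3; 4 group means, intensity trend, two-sided, Benjamini-Hochberg over all genes of a comparison, 4 residual and 6.06 prior degrees of freedom). The 5 comparisons were heat at each stage, their interaction, and stage at each temperature. Whole reads (within 0.0015 reads) and lengths were recovered for all 20845 genes above 0 in at least 3 libraries, up to a divisor common to a gene's reads, and were used for counting error and limma voom. These counting errors are Poisson and cover counting only. Fit and recovery were tested on simulated data.

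Named among other family genes were, per comparison, up to 3 called rises and 3 called falls of largest size. CIPK03 and the order and ratios of members were added after values were seen. Name lists for other calcium sensors and for abscisic acid signalling matched 0 genes. Only the 309 IDs with a descriptive name were searched, of which 250 were tested. Genes of these kinds without such a name would be missed.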

Additional observations from a re-analysis of the deposited data

Results flagged for a closer look

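For 3 tested family genes both heated libraries lay on one side of the unheated ones before véraison and on the other side after it. How many of all tested genes do so was not counted, so nothing is read from that number. CBL05, which was not tested, did so as well, on 0 to 3 reads a library. CBL01 was lower with heat before and higher after véraison, and the difference of its responses was 0.89 log2 units, a value given without a test. CIPK07 went from 35.5 and 32.5 to 28.2 and 26.5 RPKM before and from 12.8 and 10.7 to 14.3 and 15.1 RPKM after véraison, a difference of 0.61 log2 units (limma adjusted p = 0.059). CIPK018 went from 47.3 and 46.1 to 45.8 and 36.5 RPKM before and from 21.6 and 23.6 to 25.4 and 25.5 RPKM after véraison, a difference of 0.35 log2 units (limma adjusted p = 0.27). For CIPK07 and CIPK018 the difference between stages did not pass the threshold in limma over all 8 libraries at a pseudocount of 1. That of CIPK07 passed it at a pseudocount of 5, without replicate 1 of the unheated ripening berries, and with limma voom.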

How the results depend on the processing

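No member's called difference changed sign under the 15 alternatives (14 for the interaction): a pseudocount of 0.1 or of 5, all genes unfiltered, median-ratio scaling, only the 4 libraries compared, a replicate block, limma voom on recovered reads, and each library left out. Of 518 member values, 455 moved by less than the residual SD of the gene and 63 by more. Many of the 455 could not move, so that number does not measure stability. Leaving genes unfiltered or adding the replicate block keeps a difference the same by construction. For a comparison of 2 groups, so does using only its 4 libraries or leaving out a library of another group. A further 300 values covered the other called family genes of largest size per comparison and the called transport genes. Of these, 278 kept their call, 21 lost it, and TPC1 changed sign in the stage comparison at 16 °C with median-ratio scaling (0.08). Called family genes with smaller differences, such as CBL03, CIPK11 and CIPK12 at 16 °C, were not among these values. Calls in the family of 25 tested genes, 11 with heat before véraison, ranged from 5 to 10 with 1 library left out, with 5 without heated green replicate 2 and 7 without unheated green replicate 1. With heat after véraison they were 0, ranged from 0 to 1 with 1 library left out, and were 1 by limma voom. For the interaction they were 6 and ranged from 3 to 6 (3 without heated green or heated ripening replicate 2), with 8 by limma voom. For stage at 16 °C they were 23, ranged from 22 to 23 with 1 library left out and from 20 (median-ratio scaling) to 24 over all alternatives. For stage at 38 °C they were 20, ranged from 19 to 20 with 1 library left out and were 16 with median-ratio scaling. With heat before véraison limma voom called 15. With the replicate block the counts were 10, 0, 5, 23 and 20. Replicate numbers did not pair the libraries: replicate 1 deviations correlated across groups at -0.052 to 0.025. Without 1 library of a group, the lone one is assumed to vary like the other groups. An edgeR test that had been planned was not run, since the files hold no counts. Depth limits precision for CIPK19, CIPK16, CBL04, CBL07 and CBL08, at 50, 4, 2, 10 and 1 reads in their lowest library. The causes of these changes were not tested.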
